A study of Mus musculus with 15 samples.

Results

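The genes that turn membrane arachidonate into prostaglandin E2 and leukotrienes were followed in RAW 264.7 cells, a mouse macrophage line, after treatment with silica nanoparticles (SNPs). They are 10 of the 57186 genes in the deposited count table and were taken by name: Pla2g4a, Ptgs1, Ptgs2, Ptges, Ptges2, Ptges3, Alox5, Alox5ap, Lta4h and Ltc4s. The list was chosen with earlier results of these data known, so counts of members beside the share of all genes are descriptive. The cells were left nontreated (Control) or held for 6 h with one of 4 particles. SNP100 particles are nonporous with a nominal diameter of 100 nm and were given at 50 µg/mL. SNP50 particles are nonporous, 50 nm, and were given at 25 µg/mL. MSNPs are mesoporous and HMSNPs are hollow and mesoporous, both 100 nm and both given at 200 µg/mL. Each of the 5 groups has 3 libraries of poly(A) RNA, and all share one cell line, one medium with serum and one time point. Because the doses were set to the highest nontoxic level of each particle, only MSNP and HMSNP share a dose. That dose is by mass and need not be an equal number of particles. The study describes HMSNPs as low in density and different in surface composition, so the pair differs in more than hollowness.

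Cytosolic phospholipase A2, the product of Pla2g4a, frees arachidonate from membrane phospholipids. The cyclooxygenases Ptgs1 (COX-1, usually steady) and Ptgs2 (COX-2, usually induced by inflammatory signals) turn it into prostaglandin H2, and the synthases Ptges, Ptges2 and Ptges3 can turn that into prostaglandin E2. On the other branch Alox5, helped by the membrane protein Alox5ap (FLAP), makes leukotriene A4, which Lta4h hydrolyses to leukotriene B4 and Ltc4s joins to glutathione to give leukotriene C4. Macrophages are a main source of both kinds of lipid mediator.

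The libraries held 29369934 to 42617812 counts, and all 10 genes were counted in every library, from 52 to 128 counts for Ptges up to 10561 to 16638 for Ptges3. All 10 passed the filter of at least 10 counts summed over the libraries, as did 19839 genes in all. All 8 markers of macrophages that were looked for had passed the same filter, with summed levels of 11351 to 17397 CPM (counts scaled to library size). Most of that sum was Lyz2, with 5780390 counts over the 15 libraries, beside 597034 for Cd68, the next. The mannose receptor gene Mrc1 held only 395 counts. Mast cells and basophils are rich in Ltc4s, and of 6 of their markers 4 were at 0 counts in every library and the sum of the list stayed at or below 0.109 CPM. Among 5 neutrophil markers, S100a9 and Ly6g were at 0 counts, S100a8 held 1010 counts over the 15 libraries and the sum lay between 1.42 and 3.31 CPM. The sums reached 0.136 CPM for 3 lymphocyte markers, where Cd3e held 1 count in all, and 0.244 CPM for 4 markers of epithelium or fibroblasts, where Epcam was at 0.

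Control replicate 3 stood furthest apart among nontreated libraries that all differed from each other. Across 10652 genes in 10 bins of transcript length, its median log2 difference from the other controls fell from 0.70 in the shortest bin to -0.86 in the longest. The same difference was 0.90 for Ltc4s, 0.76 for Alox5ap, 0.50 for Ptges2, 0.35 for Ptges3 and -0.57 for Ptgs2, and lay between -0.12 and 0.11 for the other 5 members. Not all of these followed the length trend. The bin that holds the canonical length of Ptges2 (5221 bases) had a median of -0.38, and that of Alox5ap (2792 bases) 0.14. The part of Control replicate 3 in a result was not tested beyond leaving it out and an offset for transcript length. Values without it are given for the members where they change a call, and for any named gene where they end a call or move a called value by over 1.5 times. Control replicates 1 and 2 also differed. The mean chi-square per gene, a measure of how far a pair of libraries lies apart, was 66.17 for them. It was 174 and 205.3 for pairs with replicate 3, and 4.585 to 13.94 within treated groups. HMSNP calls over all genes went from 1024 to 4940 without Control replicate 2 and to 1699 without replicate 3. SNP50 calls went from 280 to 238 and 3713 in that order. Values without replicate 3 thus still rest on uneven controls. The labels do not say whether libraries of a group came from separate cultures, so p-values measure the spread between these libraries, which may be technical. That spread was estimated over all 5 groups, not from the groups compared alone, although Control pairs lay further apart than treated pairs. With only the 6 libraries of a comparison fitted, calls over all genes went from 1024 to 77 with HMSNP. They went from 181 to 0 with SNP100, from 280 to 1 with SNP50 and from 4527 to 2257 with MSNP. For HMSNP against MSNP they rose from 4010 to 7142. The number that opens a library's title in the labels is shared within a group and differs between groups, and what it stands for is not stated, so whatever it marks and the treatment cannot be told apart. In RNA from a whole culture, fewer cells of a kind and less RNA per cell cannot be told apart.

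MSNP-treated cells showed the widest change. Of the 10 genes, 6 passed an adjusted p of 0.05 in edgeR's quasi-likelihood test against Control, 5 lower and 1 higher, where 22.8% of all tested genes passed, 11% lower and 11.8% higher. Lower were Pla2g4a, Ptgs1, Ptgs2, Alox5 and Alox5ap, and higher was Lta4h. In HMSNP-treated cells 3 of the 10 passed, all lower (Ptgs1, Lta4h and Ltc4s), against 5.16% of all genes (2.7% lower and 2.46% higher). In SNP100-treated cells 1 passed, Ptgs2, which was lower, against 0.912% of all genes (0.403% lower and 0.509% higher). In SNP50-treated cells 1 passed, again Ptgs2 and lower, against 1.41% (0.958% lower and 0.454% higher). The median log2 fold change of the 10 genes was -0.51 with MSNP, -0.24 with HMSNP, -0.21 with SNP50 and -0.15 with SNP100, while the median over all tested genes was -0.05, -0.04, 0.00 and -0.02. The tested genes include some with only 10 counts in total, far fewer than any member. Under edgeR's filterByExpr, which asks for more counts, larger shares of genes passed. These were 4730 of 14284 genes with MSNP, 1281 with HMSNP, 409 with SNP50 and 264 with SNP100. The members called were again 6, 3, 1 and 1. These 4 comparisons share the Control libraries and are therefore not independent of each other.

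**Figure D1:**
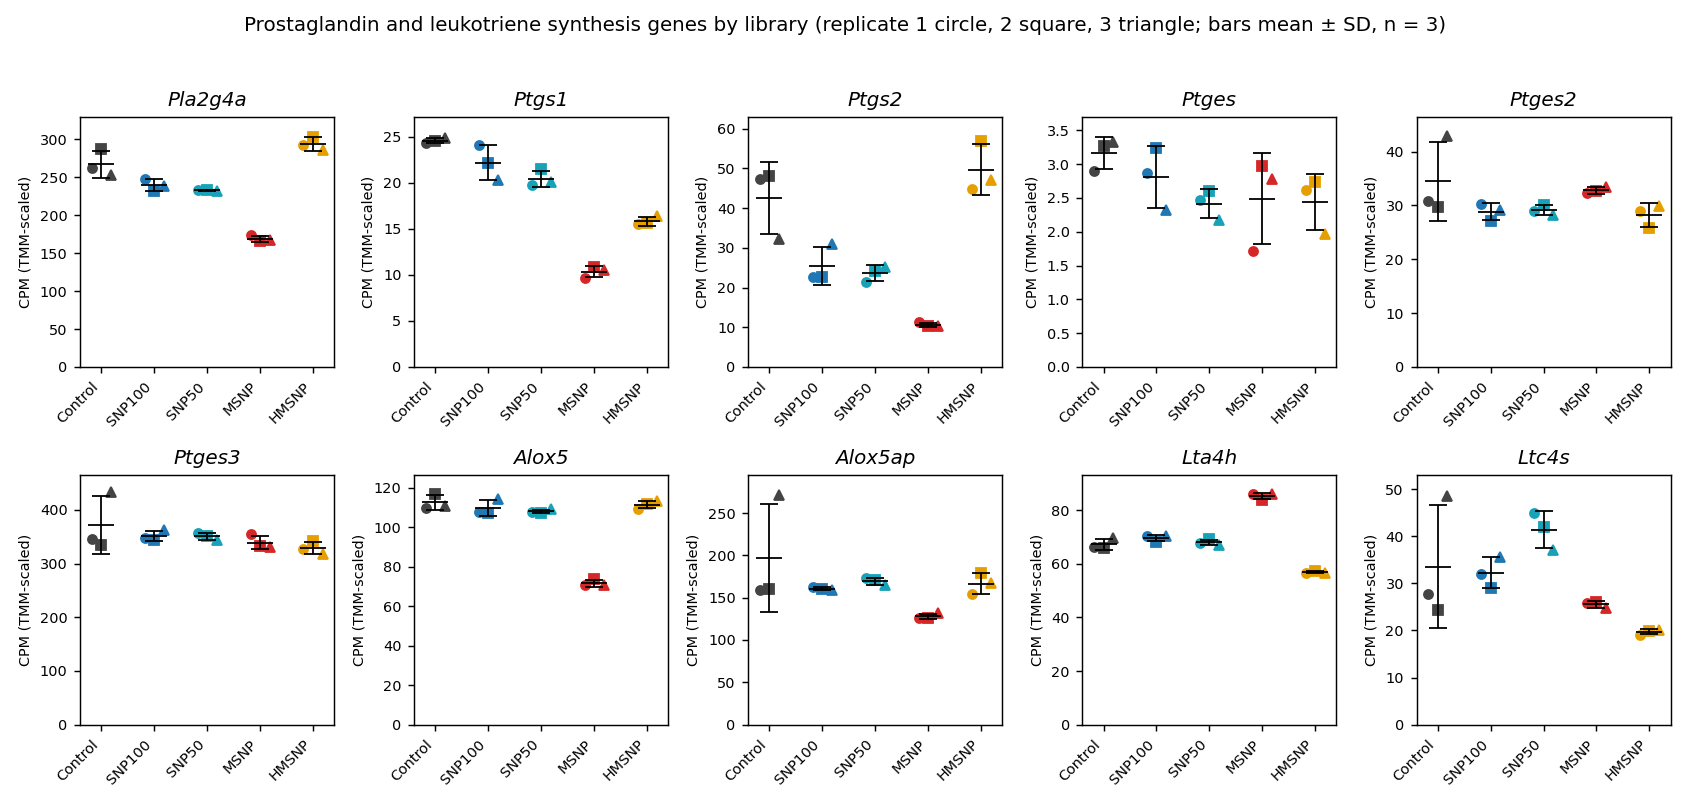
Level of each of the 10 genes in the 15 libraries, in TMM-scaled CPM on a linear axis that starts at 0. Points are libraries (circle, square and triangle for replicates 1, 2 and 3) and bars give the mean and SD of 3 libraries. Ptgs2, Ptgs1, Pla2g4a, Alox5 and Alox5ap lie lowest in the MSNP-treated group, Lta4h lies highest there, and Control replicate 3 stands above the other controls for Ltc4s, Alox5ap and Ptges2.

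The groups did not overlap, every library of one lying above every library of the other, for 6 of the 10 genes with MSNP and 4 with HMSNP, where 33.2% and 22.9% of all genes did not overlap. With SNP50 the groups did not overlap for 5 of the genes and with SNP100 for 3, beside 14.1% and 12.5% of all genes. Genes can only be compared with each other per kilobase of their annotated exons. On that scale the nontreated controls held 167 ± 24.1 (SD, n = 3) CPM per kb of Ptges3, the gene of p23, which also serves as a co-chaperone of Hsp90. Alox5ap followed at 50.9 ± 16.6, Pla2g4a at 35.6 ± 2.34, Ltc4s at 32.4 ± 12.7 and Alox5 at 27.4 ± 0.961 CPM per kb, each overlapping the next in the order within its SD. The cyclooxygenases were lower, at 8.31 ± 1.75 for Ptgs2 and 6.31 ± 0.0662 for Ptgs1, close to Lta4h at 6.14 ± 0.193 and Ptges2 at 5.04 ± 1.07 CPM per kb. Ptges, the inducible microsomal synthase, was lowest at 0.718 ± 0.0538. The order depends on the choice of length, since annotated exons cover 10972 bases of Lta4h and 7505 of Pla2g4a while their canonical transcripts have 2053 and 2856. Per kb of canonical transcript Pla2g4a stood at 93.5 ± 6.14 CPM and Lta4h at 32.8 ± 1.03, and Alox5ap came after Pla2g4a at 70.5 ± 23.0.

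Stretches upstream of 4 members are shown: the 2 whose levels moved most with MSNP (Ptgs2, Ptgs1), a neighbour of Ptgs2 on chromosome 1 that was also lower there (Pla2g4a), and the one that was higher (Lta4h). All are from GRCm39, on the gene's own strand. All but the second Ptgs2 stretch lie within 250 bases before the GENCODE canonical start and leave out bases in an exon of the same gene. Capitals mark matches on either strand to a searched motif. Searched by letters were the TATA box (TATAAA) and the run TTAAAA, the core of the cyclic AMP response element or CRE (TGACG), the E-box (CACGTG), the AP-1 site (TGANTCA), the C/EBP site (TTNNGNAA), the CCAAT box, the GC box (GGGCGG) and the core that PU.1 binds (GAGGAA). The whole CRE, the CLEAR element and the NF-kB consensus were searched too.
Ptgs2, chr1:149975443-149975487, plus strand: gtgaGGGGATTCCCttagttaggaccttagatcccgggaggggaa
Ptgs2, chr1:149975785-149975813, plus strand: gtcaccactaCGTCACGTGgagtccgctt
Ptgs1, chr2:36120188-36120437, plus strand: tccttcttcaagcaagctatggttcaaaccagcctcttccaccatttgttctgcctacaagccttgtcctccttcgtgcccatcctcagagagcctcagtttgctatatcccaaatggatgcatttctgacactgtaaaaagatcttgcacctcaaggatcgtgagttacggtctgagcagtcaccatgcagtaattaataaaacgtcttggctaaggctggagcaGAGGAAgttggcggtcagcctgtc
Pla2g4a, chr1:149837054-149837291, minus strand: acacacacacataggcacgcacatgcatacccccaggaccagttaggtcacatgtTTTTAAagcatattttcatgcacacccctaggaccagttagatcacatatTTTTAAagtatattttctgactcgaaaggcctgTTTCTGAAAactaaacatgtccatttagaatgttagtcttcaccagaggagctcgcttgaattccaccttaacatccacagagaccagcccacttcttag
Lta4h, chr10:93288999-93289209, plus strand: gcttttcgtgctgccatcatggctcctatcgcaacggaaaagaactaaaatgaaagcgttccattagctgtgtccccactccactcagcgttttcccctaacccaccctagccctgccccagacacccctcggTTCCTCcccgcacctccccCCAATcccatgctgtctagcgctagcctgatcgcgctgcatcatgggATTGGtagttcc

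In the first Ptgs2 stretch the capitals are a match to the NF-kB consensus, 41 to 32 bases before the start, which 7.62% of 21770 promoter windows of the same length also hold. The rest of its 250-base window, 205 bases, lies in an exon of another Ptgs2 transcript and is not printed; it holds TTAAAA and a CRE core (18% of windows). The second Ptgs2 stretch lies in the first exon of the canonical transcript, just after the RefSeq start, which is 294 bases downstream of the GENCODE one. Its capitals, CGTCACGTG, join a CRE core read on the other strand to an E-box, and these letters occur in 148 of 32851 RefSeq promoter windows (0.451%, on GRCm38.p6, matched here by sequence). This run was picked because Ptgs2 holds it, and no other member was searched beyond its own window. Its share is thus a description, and it comes from other windows than the remaining shares. The Ptgs1 stretch holds the PU.1 core, found in 22.9% of windows. Pla2g4a holds TTAAAA at 2 places on the other strand (18.2% of windows) and 2 overlapping C/EBP matches (36.9%), and Lta4h holds CCAAT at 2 places (36.5%) and the PU.1 core on the other strand. A match is a run of letters and not a measured binding site, and a motif that was not matched is only absent from the window searched.

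Pla2g4a (chromosome 1, 149705369 to 149837053) encodes the phospholipase that starts both branches. It was measured at 262, 287 and 253 CPM in the 3 controls and at 174, 166 and 167 CPM in the MSNP-treated libraries, which all lie below every control. The log2 fold change was -0.66 (SE 0.0602, edgeR adjusted p = 8.15e-07). With HMSNP its libraries stood at 293, 304 and 285 CPM, overlapping the controls at the top, and the log2 difference of 0.14 (SE 0.0599) did not pass, with an edgeR adjusted p of 0.18, while without Control replicate 2 it was 0.21 and passed (edgeR adjusted p = 0.0208). Thus MSNP and HMSNP libraries, treated at the same dose, were separated with no overlap, HMSNP being higher by 0.80 on the log2 scale (SE 0.0603, edgeR adjusted p = 1.17e-07). The nonporous particles gave 248, 232 and 239 CPM (SNP100) and 234, 233 and 232 CPM (SNP50), all below the controls, at log2 differences of -0.16 and -0.20 that did not pass (edgeR adjusted p = 0.345 and 0.155). Without Control replicate 3 these became -0.20 and -0.24 and passed, with edgeR adjusted p of 0.0230 and 0.00220.

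Ptgs2 (chromosome 1, 149975194 to 149983978), the inducible cyclooxygenase, had the largest change of the 10 genes. The controls held 47.2, 48.2 and 32.2 CPM, the lowest being replicate 3, and the MSNP-treated libraries 11.2, 10.3 and 10.3 CPM. The log2 fold change was -2.0 (SE 0.162, edgeR adjusted p = 2.19e-07), a level at 0.249 of the control level, and without Control replicate 3 it was -2.16. HMSNP-treated libraries did not follow, at 44.9, 57.0 and 47.1 CPM, with a log2 difference from Control of 0.22 (95% interval -0.10 to 0.55, edgeR adjusted p = 0.378). Between the porous particles at equal dose, HMSNP was therefore higher than MSNP by 2.23 on the log2 scale, or 4.68-fold (SE 0.162, edgeR adjusted p = 8.08e-08).

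With the nonporous particles Ptgs2 lay between the MSNP level and the control level. SNP100-treated libraries held 22.6, 22.7 and 30.9 CPM and SNP50-treated libraries 21.5, 24.2 and 25.2 CPM, all below the lowest control. The log2 fold change was -0.74 for SNP100 (SE 0.154, edgeR adjusted p = 0.0330) and -0.85 for SNP50 (SE 0.155, edgeR adjusted p = 0.0133). Both calls were fragile. The SNP100 call held in 9 of 23 alternative analyses, and the edgeR adjusted p rose to 0.733 when only the 6 libraries compared were fitted and to 0.0654 with the replicate number as a block. The SNP50 call held in 18 of 23 and was lost without any 1 of the SNP50 libraries, without Control replicate 1 and in the fit of 6 libraries (edgeR adjusted p = 0.472). Without Control replicate 3 they were larger, at -0.91 and -1.02.

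Ptgs1 (chromosome 2, 36120438 to 36142287), the cyclooxygenase that most cells express steadily, had tight controls at 24.3, 24.5 and 24.8 CPM. The MSNP-treated libraries held 9.68, 10.9 and 10.5 CPM, a log2 fold change of -1.25 (SE 0.0773, edgeR adjusted p = 1.17e-08). The HMSNP-treated libraries held 15.5, 15.6 and 16.4 CPM, all below the controls and above the MSNP level, at a log2 fold change of -0.63 (SE 0.0753, edgeR adjusted p = 0.000138). Both calls held in 23 of 23 alternative analyses. HMSNP was higher than MSNP by 0.61 on the log2 scale (SE 0.0774, edgeR adjusted p = 2.62e-05), so that Ptgs1 was lower than in Control with both porous particles and lowest with MSNP. With SNP100 (24.1, 22.2 and 20.3 CPM) and SNP50 (19.8, 21.4 and 20.1 CPM) all libraries lay below all controls, yet neither passed, at log2 differences of -0.15 and -0.26 (edgeR adjusted p = 0.518 and 0.115). Without Control replicate 3 the SNP50 difference passed with an edgeR adjusted p of 0.0166.

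**Figure D2:**
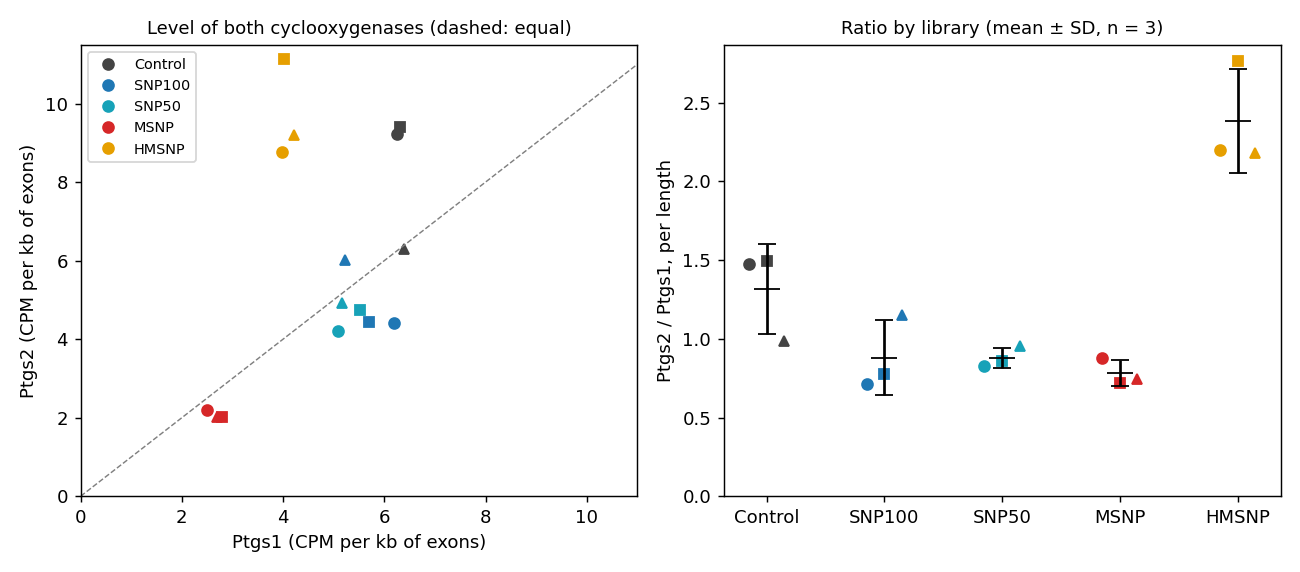
Left, the level of Ptgs2 against Ptgs1 in each library, both in CPM per kb of exons, with a dashed line where they are equal. Right, the ratio of the 2 levels by group, with mean and SD of 3 libraries; circle, square and triangle are replicates 1, 2 and 3. The HMSNP-treated libraries lie between 2.18 and 2.76 and every other library at or below 1.49.

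Set against each other per length, the 2 cyclooxygenase messages changed place between groups. The ratio of Ptgs2 to Ptgs1 was 1.47, 1.49 and 0.986 in the controls, the lowest value again being replicate 3. In HMSNP-treated libraries it was 2.20, 2.76 and 2.18, above all controls. It was below 1 in all MSNP-treated libraries (0.878, 0.721 and 0.748) and all SNP50-treated libraries (0.826, 0.858 and 0.952), and was 0.713, 0.777 and 1.15 with SNP100. The means were 1.32 ± 0.288 (SD, n = 3) in Control, 2.38 ± 0.331 with HMSNP, 0.782 ± 0.0839 with MSNP, 0.879 ± 0.0656 with SNP50 and 0.881 ± 0.238 with SNP100. The ratio itself was not tested, and an exact two-sided permutation test of 3 libraries against 3 can give no p below 0.1. Per kb of the canonical transcripts, in place of all annotated exons, the controls held 8.96 ± 1.89 (SD, n = 3) CPM of Ptgs2 and 8.56 ± 0.0897 of Ptgs1, so each ratio would be lower by one common factor. Pla2g4a and Ptgs2 are also neighbours on chromosome 1, 138 kb apart with no annotated protein-coding gene between them.

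The prostaglandin E2 synthases, the next step, did not pass in any of the 4 comparisons with Control. Ptges (chromosome 2, 30779483 to 30820196), which often works together with COX-2, was at 2.89, 3.27 and 3.33 CPM in the controls and between 1.72 and 3.24 CPM in the treated libraries. Its log2 differences were -0.34 with MSNP, -0.38 with HMSNP, -0.39 with SNP50 and -0.17 with SNP100, with standard errors of 0.190 to 0.194 and edgeR adjusted p of 0.234 to 0.769. Ptges2 (chromosome 2, 32285659 to 32295786), a membrane-associated synthase, was at 30.8, 29.7 and 42.9 CPM in the controls and at 32.3, 32.8 and 33.5 CPM with MSNP. Its log2 difference with MSNP was -0.07 (SE 0.114, edgeR adjusted p = 0.710) and turned to 0.13 without Control replicate 3. Ptges3 (chromosome 10, 127894816 to 127913141) was at 346, 335 and 433 CPM in the controls and at 354, 333 and 331 CPM with MSNP, a log2 difference of -0.13 (SE 0.0823, edgeR adjusted p = 0.280), which was 0.00 without that library. With HMSNP the log2 differences of Ptges2 (-0.29) and Ptges3 (-0.17) passed when Control replicate 2 was left out, at -0.37 and -0.22 (edgeR adjusted p = 0.0291 and 0.04996). Without Control replicate 3 they were -0.10 and -0.05 and did not pass (edgeR adjusted p = 0.440 and 0.604). An offset for transcript length gave Ptges2 -0.26 with MSNP and -0.49 with HMSNP, and neither passed (edgeR adjusted p = 0.287 and 0.0827).

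The leukotriene branch changed in both directions with MSNP. Alox5 (chromosome 6, 116387032 to 116438139), the 5-lipoxygenase, was at 110, 117 and 111 CPM in the controls and at 70.7, 73.7 and 70.5 CPM in the MSNP-treated libraries. The log2 fold change of -0.65 (SE 0.0559, edgeR adjusted p = 4.14e-07) was close in size to that of Pla2g4a. With HMSNP its libraries stood at 110, 112 and 113 CPM, overlapping the controls, and the log2 difference was -0.01 (95% interval -0.13 to 0.10). Alox5 was thus higher with HMSNP than with MSNP by 0.64 on the log2 scale (SE 0.0559, edgeR adjusted p = 5.70e-07). SNP100 (108, 107 and 114 CPM) and SNP50 (108, 107 and 109 CPM) gave log2 differences of -0.04 and -0.06 that did not pass.

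Alox5ap (chromosome 5, 149196003 to 149227762), whose protein presents arachidonate to Alox5, was at 159, 160 and 271 CPM in the controls, where replicate 3 stands far above the others. The MSNP-treated libraries held 126, 127 and 132 CPM, below every control. The log2 fold change was -0.62 (SE 0.151, edgeR adjusted p = 0.00703), and without Control replicate 3 it was -0.31 (edgeR adjusted p = 0.000108). The call was lost only in the fit of the 6 libraries alone (edgeR adjusted p = 0.112) among 23 alternatives. With HMSNP (154, 179 and 167 CPM), SNP100 (163, 161 and 159 CPM) and SNP50 (173, 171 and 165 CPM) the log2 differences from Control of -0.24, -0.29 and -0.22 did not pass, and they were 0.06, 0.01 and 0.08 without that library.

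Lta4h (chromosome 10, 93289210 to 93320749), the hydrolase that makes leukotriene B4, was the one member that rose with MSNP. Its libraries stood at 66.1, 66.1 and 69.8 CPM in Control and at 86.0, 84.0 and 86.0 CPM with MSNP, a log2 fold change of 0.34 (SE 0.0535, edgeR adjusted p = 0.000204). With HMSNP the libraries stood at 56.8, 57.5 and 56.7 CPM, below every control, at a log2 fold change of -0.24 (SE 0.0535, edgeR adjusted p = 0.0174). That call held in 17 of 23 alternatives, and with an offset for transcript length the value was -0.14 (edgeR adjusted p = 0.125). It was also lost in the fit of 6 libraries (edgeR adjusted p = 0.409) and with no filter on low counts (edgeR adjusted p = 0.0905). The porous particles thus stood on opposite sides of Control for Lta4h, and HMSNP was lower than MSNP by a log2 difference of -0.58 (SE 0.0536, edgeR adjusted p = 9.81e-07). SNP100 and SNP50 libraries lay between 67.0 and 70.4 CPM, overlapping the controls.

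Ltc4s (chromosome 11, 50127288 to 50129443), the leukotriene C4 synthase, is the shortest member and had uneven controls, at 27.8, 24.3 and 48.6 CPM. The HMSNP-treated libraries held 19.1, 19.9 and 20.1 CPM, a log2 fold change of -0.77 (SE 0.187, edgeR adjusted p = 0.0284), and -0.40 (edgeR adjusted p = 0.00667) without Control replicate 3. The call was lost without any 1 of the HMSNP libraries and in the fit of 6 libraries. With MSNP (25.8, 26.1 and 24.8 CPM) the log2 difference of -0.40 did not pass (edgeR adjusted p = 0.146) and was -0.02 without Control replicate 3, and -0.58 without Control replicate 2, where it passed (edgeR adjusted p = 0.0137). With SNP50 the direction was upward, at 44.9, 42.1 and 37.2 CPM, but the log2 difference of 0.30 did not pass (edgeR adjusted p = 0.578). Against the other controls alone it was 0.66 (edgeR adjusted p = 0.000109). SNP100 libraries held 32.1, 29 and 35.6 CPM, at a log2 difference of -0.06 with all controls and 0.30 without replicate 3, neither of which passed.

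**Figure D3:**
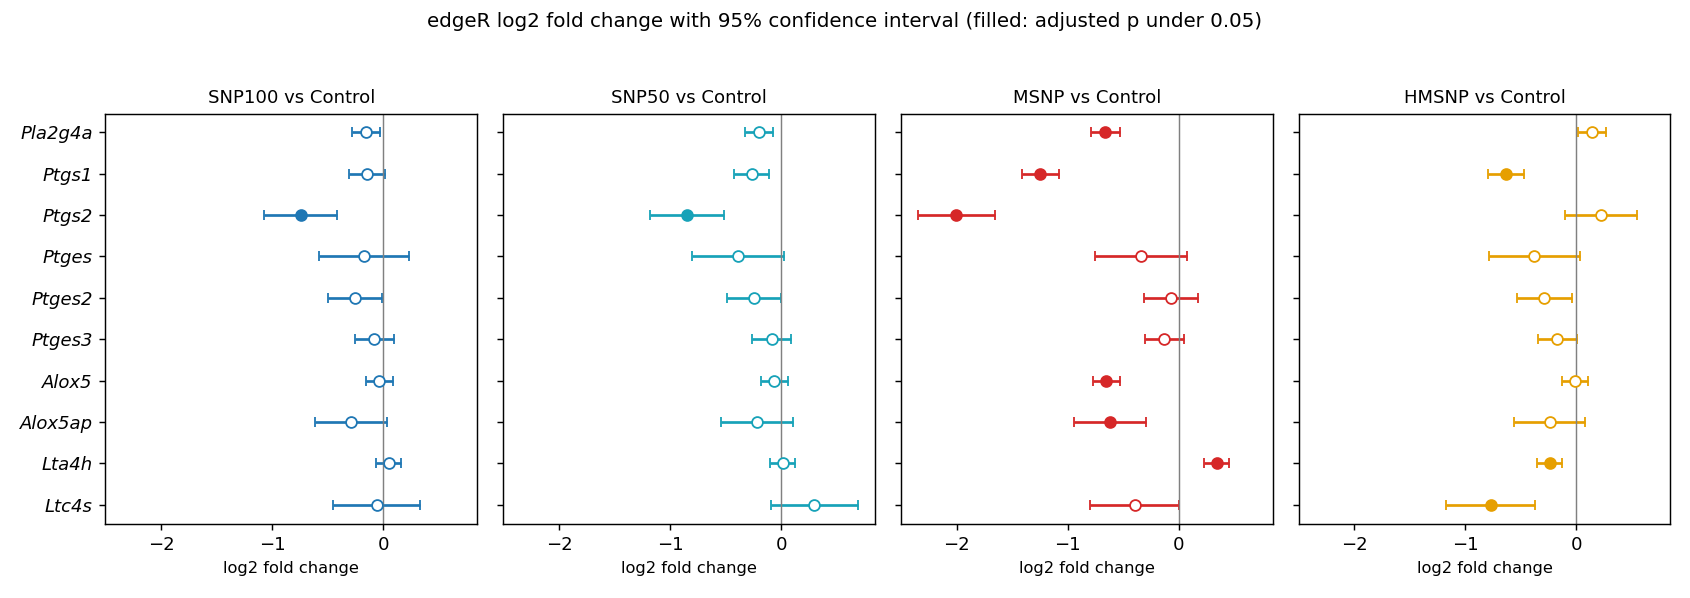
Log2 fold change of each gene against Control with its 95% interval from the edgeR fit, one panel per particle, filled where the adjusted p is under 0.05. With MSNP 6 points are filled, of which only Lta4h lies to the right of 0, while SNP100 and SNP50 have Ptgs2 alone filled.

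**Figure D4:**
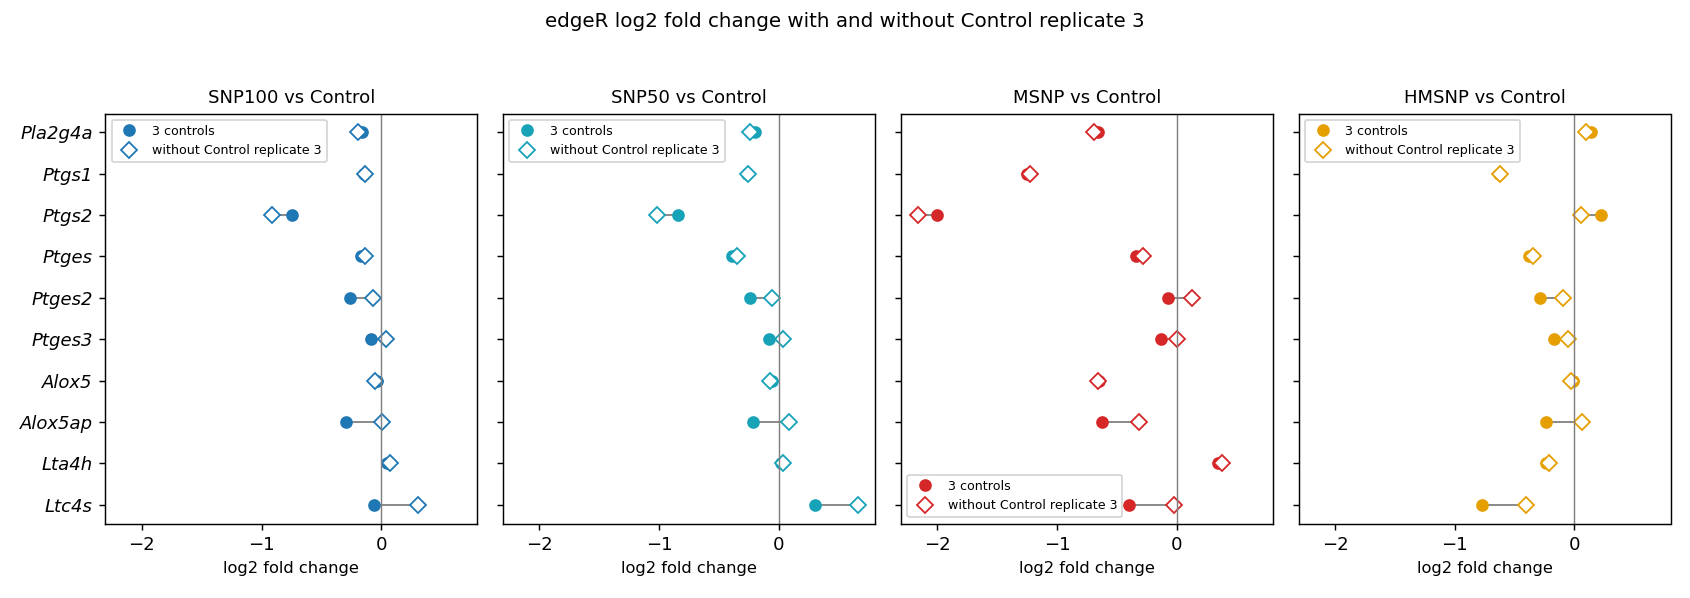
The same log2 fold changes with 3 controls (filled circles) and without Control replicate 3 (open diamonds). Ptgs1, Lta4h and Alox5 barely move, while Ltc4s, Alox5ap, Ptges2 and Ptgs2 shift in all 4 comparisons, Ltc4s with SNP50 from 0.30 to 0.66.

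The porous particles were compared at 200 µg/mL each. Of the 10 genes, 5 passed between HMSNP and MSNP, where 20.2% of all genes did (9.22% higher and 11% lower with HMSNP): Pla2g4a, Ptgs1, Ptgs2 and Alox5 were higher and Lta4h lower with HMSNP. Their groups did not overlap for 8 of the 10, against 45.3% of all genes. The other members did not pass in the shared fit. Alox5ap was higher by 0.38 on the log2 scale (95% interval 0.06 to 0.70, edgeR adjusted p = 0.0964). Ltc4s was at -0.37 (-0.77 to 0.03), Ptges2 at -0.22 (-0.46 to 0.03), Ptges3 at -0.04 (-0.22 to 0.13) and Ptges at -0.04 (-0.46 to 0.37). Alox5ap, Ltc4s and Ptges2 passed when Control replicate 3 was left out of the shared fit, where the SE of Alox5ap went from 0.151 to 0.0462, with edgeR adjusted p of 3.69e-06, 0.000930 and 0.00559. Alox5ap also passed without Control replicate 2 (edgeR adjusted p = 0.0388). With only the 6 HMSNP and MSNP libraries fitted, Alox5ap, Ltc4s and Ptges2 passed, with edgeR adjusted p of 4.07e-05, 9.88e-05 and 0.0161.

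MSNP and SNP100 share a nominal diameter but not a dose (200 and 50 µg/mL). Between them 5 of the 10 genes passed, where 17.9% of all genes did (10.4% higher and 7.53% lower with MSNP). Pla2g4a (-0.50), Ptgs1 (-1.10), Ptgs2 (-1.26) and Alox5 (-0.62) were lower with MSNP on the log2 scale, and Lta4h (0.29) was higher, with edgeR adjusted p between 6.96e-08 and 0.00101. Without Control replicate 3 in the shared fit Alox5ap (-0.32), Ltc4s (-0.32) and Ptges2 (0.20) passed too. They also passed with only the 6 MSNP and SNP100 libraries fitted (edgeR adjusted p = 4.28e-06, 0.00112 and 0.00700). Between SNP50 and SNP100, which also differ in dose, 0 of the 10 genes and 0% of all genes passed in edgeR, with 0 members and 867 genes at an unadjusted p under 0.05, and DESeq2 called 1 gene, none of the members. The largest log2 difference among the members there was 0.36 for Ltc4s (95% interval -0.03 to 0.76), which passed without Control replicate 3 (edgeR adjusted p = 0.0477), followed by -0.22 for Ptges (-0.63 to 0.20).

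Other genes of the eicosanoid pathway were looked up from a list of 81, of which 60 were tested. With MSNP 9 of the 60 rose and 11 fell against Control, beside 11.8% and 11% of all tested genes. With HMSNP 3 rose and 3 fell (2.46% and 2.7% of all genes), with SNP100 1 rose and 2 fell (0.509% and 0.403%), and with SNP50 1 rose and 1 fell (0.454% and 0.958%). Both falls with SNP100 were lost with the replicate number as a block. The median log2 fold changes of the 60 were -0.02, 0.06, -0.13 and -0.09, in the order MSNP, HMSNP, SNP100 and SNP50. Between HMSNP and MSNP 12 were higher and 7 lower with HMSNP, beside 9.22% and 11% of all genes. Only values of named genes that passed are called changes in what follows.

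Upstream, among 17 phospholipases and hydrolases, 4 rose and 1 fell with MSNP. Pla2g2e, a secreted phospholipase A2, went from 3.08, 3.41 and 4.71 CPM in Control to 13.5, 13.5 and 13.9 CPM with MSNP (log2 fold change 1.86, SE 0.164, edgeR adjusted p = 5.27e-07). That is the opposite direction to the cytosolic enzyme Pla2g4a. Pla2g15, the lysosomal phospholipase A2, rose by 0.61 and Dagla, a diacylglycerol lipase, by 0.45 on the log2 scale with MSNP, the latter by 0.29 without Control replicate 3. The Dagla call held in 20 of 23 alternatives and was lost in the fit of 6 libraries (edgeR adjusted p = 0.174). Faah, which breaks down anandamide, differed only between HMSNP and MSNP among the 5 comparisons (0.37), a call that held in 17 of 23 alternatives. Among 7 genes that activate or reacylate arachidonate, Lpcat2 fell from 65.1, 69.1 and 81.6 CPM to 30.6, 29.8 and 28.9 CPM with MSNP (log2 fold change -1.27, edgeR adjusted p = 1.39e-08). Mboat7, which puts arachidonate back into phosphatidylinositol, fell in all 4 treated groups, by a log2 fold change of -0.60 with MSNP, -0.38 with SNP50, -0.33 with HMSNP and -0.30 with SNP100 (edgeR adjusted p between 5.95e-06 and 0.0468). The Mboat7 call held in 23, 20, 21 and 5 of 23 alternatives in that order, so the SNP100 call was the most fragile. In the fits of 6 libraries only the MSNP call held. The edgeR adjusted p there was 0.558 with SNP50, 0.3025 with HMSNP and 0.817 with SNP100. Acsl1, an acyl-CoA ligase, rose with MSNP (0.66) and HMSNP (0.43), and Acsl3 with HMSNP (0.34). The HMSNP calls held in 14 of 23 alternatives for Acsl1, which was at 0.28 without Control replicate 3, and in 20 for Acsl3.

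Downstream of the cyclooxygenases, Hpgds, the hematopoietic prostaglandin D synthase, was at 145, 157 and 124 CPM in Control and at 302, 299 and 304 CPM with MSNP. Its log2 fold change was 1.09 with MSNP (SE 0.0746, edgeR adjusted p = 3.62e-08), 0.49 with SNP100 (edgeR adjusted p = 0.00437) and 0.38 with SNP50 (edgeR adjusted p = 0.0186), all of them increases. The call held in 23 of 23 alternatives with MSNP, in 22 with SNP100 and in 18 with SNP50. It was lost in the fit of 6 libraries with SNP100 (edgeR adjusted p = 0.579) and SNP50 (0.635), and with SNP50 also without any 1 of the SNP50 libraries or Control replicate 1. With HMSNP, at 155, 152 and 150 CPM, the difference of 0.10 did not pass. Hpgd, which inactivates prostaglandins, had the largest fall of the list, from 12.8, 12.8 and 16.5 CPM to 2.81, 2.83 and 2.49 CPM with MSNP (log2 fold change -2.37, SE 0.123, edgeR adjusted p = 1.57e-09). It fell less with HMSNP, to 9.79, 9.04 and 7.65 CPM (log2 fold change -0.67, edgeR adjusted p = 0.00209). That HMSNP call held in 22 of 23 alternatives and was lost in the fit of 6 libraries (edgeR adjusted p = 0.193). Ptgr2, a prostaglandin reductase, rose by 0.30 on the log2 scale with MSNP, a call lost only in the fit of 6 libraries (edgeR adjusted p = 0.0897). Cbr1, a carbonyl reductase, was lower with HMSNP than with MSNP (-0.46), a call that held in 18 of 23 alternatives.

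Receptors moved in both directions. Ptger4, the prostaglandin E2 receptor EP4, was at 16.6, 17.4 and 15.2 CPM in Control and at 7.54, 8.18 and 7.53 CPM with MSNP, a log2 fold change of -1.08 (SE 0.0880, edgeR adjusted p = 2.39e-07). Ptgir, the prostacyclin receptor, rose with MSNP from 7.46, 7.81 and 6.46 CPM to 16.5, 14.7 and 13.7 CPM (log2 fold change 1.05, SE 0.122, edgeR adjusted p = 1.10e-05). With HMSNP neither passed, at 0.28 and 0.19. Cysltr1, a receptor for cysteinyl leukotrienes, rose with HMSNP (0.49) and was at 0.02 with MSNP, and the difference between the porous particles passed (0.47, edgeR adjusted p = 0.00160). The call against Control held in 22 of 23 alternatives and was lost in the fit of 6 libraries (edgeR adjusted p = 0.197).

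On the leukotriene C4 side, Mgst2, a glutathione transferase that can also make leukotriene C4, fell with MSNP from 64.4, 60.1 and 102 CPM to 34.4, 34.0 and 33.0 CPM (log2 fold change -1.16, edgeR adjusted p = 3.58e-05). With HMSNP it fell by 0.63 on the log2 scale (edgeR adjusted p = 0.0245), and Control replicate 3 was again the highest control. Without that library the log2 fold changes were -0.87 and -0.35, and both passed (edgeR adjusted p = 1.14e-08 and 0.00221), while the HMSNP call was lost without any 1 of the HMSNP libraries and in the fit of 6 libraries (edgeR adjusted p = 0.348). Dpep2, which trims leukotriene D4, fell with MSNP (-0.53). Among partners of the member proteins, S100a10 (-0.75) and Anxa2 (-0.41), which form one complex, fell with MSNP, Anxa2 also fell with SNP100 (-0.40, a call that held in 12 of 23 alternatives), and Hsp90aa1, the partner of Ptges3, rose with MSNP (0.44). The controls of S100a10 were at 379, 351 and 656 CPM, with replicate 3 highest. With MSNP and without that library S100a10 was at -0.40 and Anxa2 at -0.27, and both passed (edgeR adjusted p = 2.66e-05 and 7.16e-05). In the fit of 6 libraries with all controls neither passed (edgeR adjusted p = 0.0862 and 0.0742).

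**Figure D5:**
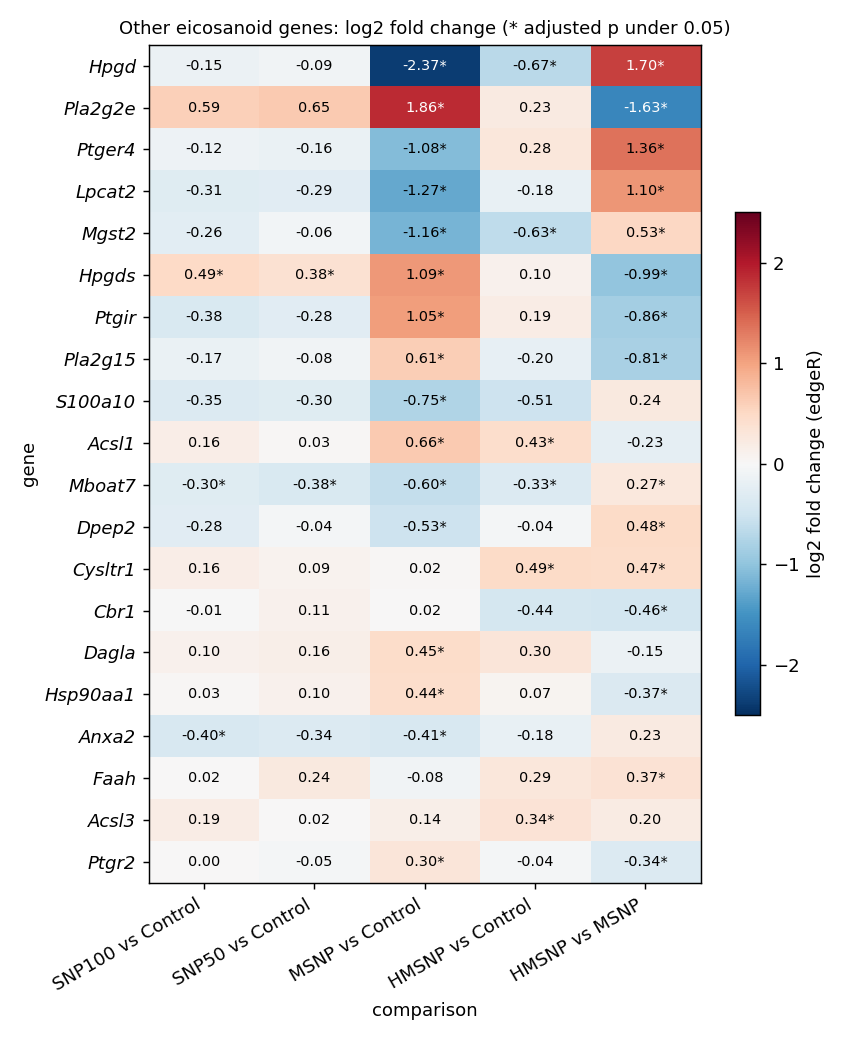
Log2 fold change of the 20 named other eicosanoid genes (rows) in 5 comparisons (columns), blue for lower and red for higher in the first group, with a star where the edgeR adjusted p is under 0.05. Hpgd at -2.37 and Pla2g2e at 1.86 with MSNP are the extremes, and Mboat7 is starred in all 5 columns.

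The genes whose levels ran closest to those of 4 members over the 15 libraries were listed among 11539 tested genes with a mean of at least 1 CPM, by the root mean square difference of centred log2 CPM. For Pla2g4a they were Ctdsp2 (0.0541), Clec5a (0.0612) and Ptpro (0.0710). For Ptgs1 they were Otulinl (0.106), Itgb5 (0.121) and Il4ra (0.125), and for Alox5ap Rhog (0.0628), Smim30 (0.0673) and S100a11 (0.0675). Ptgs2 had the most distant neighbours of these 4, Fgr (0.211), Gpr35 (0.232) and Acap1 (0.245), whose log2 fold changes were -1.96, -1.45 and -2.11 with MSNP and 0.31, 0.50 and 0.26 with HMSNP. The Alox5ap pattern includes its high level in Control replicate 3, and the search was not repeated without that library. With all controls Rhog, Smim30 and S100a11 had log2 fold changes of -0.59, -0.54 and -0.54 with MSNP. The points share libraries and depth, and the likeness is a description. The MSNP and HMSNP libraries entered the distance, so fold changes near those of the member follow from the choice. The distance was not scaled to a gene's own spread, so a gene that varies more can have more distant neighbours.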

How the data were processed

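The authors isolated poly(A) RNA, made directional libraries, and deposited a table of raw read counts per gene and library, with replicates kept apart. The submitters' processing notes name cutadapt 1.16, STAR 2.7.9a, featureCounts 1.6.3 and GRCm39; the annotation and the strand setting of the counting are not given in the sources used here. Times come from the labels and doses from the study's methods.

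Counts of all 15 libraries were fitted in R 4.3.3 with edgeR 4.0.16 (TMM, one model of the 5 groups, quasi-likelihood test, Benjamini-Hochberg over the 19839 genes with a sum of at least 10 counts, threshold 0.05). CPM values are TMM-scaled, and log2 CPM used a prior count of 2. Each standard error is the absolute log2 fold change divided by the square root of F. Symbols and positions are from GENCODE vM39, and RefSeq promoter windows were matched by sequence. Reads of overlapping annotated genes are small where they were counted: at most 2.82% of a member's count (Gm26542 in Ltc4s). Gm74745, which overlaps Ptges, and Gm67658, which overlaps Alox5, are absent from the count table, so their share is unknown. The members and gene lists were chosen with earlier results of these data known. Named are all members, up to 20 other pathway genes called in at least 1 of 5 comparisons with a mean of at least 1 CPM in 1 group, ranked by largest log2 fold change, and the 3 genes nearest in pattern to each of 4 members. Of 81 other pathway names 80 matched. Alternatives were DESeq2 1.42.0, RLE, filterByExpr, no filter, fits of 6 libraries alone, a block on the replicate number, a lowess offset for transcript length (span 0.3, mean log2 CPM over 1), and each library left out. Library depth was 29369934 to 42617812 counts. On simulated data for MSNP against Control, 88 of 100 genes changed by a log2 of 1 and 38 of 100 changed by 0.5 were called. So were 5 unchanged genes, with 19496 genes in all. These shares may not hold for controls as uneven as those of the data.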

Additional observations from a re-analysis of the deposited data

How the results depend on the processing

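Over 1610 recomputed log2 fold changes of the 10 genes, 1507 kept their direction and their side of the threshold, 30 no longer passed, 36 newly passed and 37 changed sign, all of the last among values that had not passed. With MSNP the count of members called lay between 6 and 7 when each library was left out in turn, around the 6 reported. Leaving out 1 library gave 0 to 2 members with SNP100 (1 reported), 0 to 4 with SNP50 (1), 1 to 6 with HMSNP (3, and 6 without Control replicate 2), 5 to 8 for HMSNP against MSNP (5), 5 to 8 for MSNP against SNP100 (5) and 0 to 1 for SNP50 against SNP100 (0), the highest value elsewhere coming without Control replicate 3. The pathway list gave 1 to 12 genes with SNP100 (3), 0 to 15 with SNP50 (2), 18 to 24 with MSNP (20), 2 to 18 with HMSNP (6) and 12 to 30 for HMSNP against MSNP (19). With only the 6 libraries of a comparison the members called were 0 with SNP100, 0 with SNP50, 1 with HMSNP, 8 for HMSNP against MSNP and 8 for MSNP against SNP100, and the pathway genes 0, 0, 13 with MSNP, 0 with HMSNP and 33 for HMSNP against MSNP. DESeq2 called 3 members with SNP50, and 5, 5 and 10 pathway genes with SNP100, SNP50 and HMSNP. The offset for transcript length called 3 members with SNP50, and 6, 8 and 12 pathway genes in those groups, and filterByExpr 4 pathway genes with SNP50. The offset together with leaving out Control replicate 3, chosen after seeing the data, called 2 members with SNP100, 4 with SNP50 and 8 for HMSNP against MSNP, and 12, 12, 12 and 31 pathway genes with SNP100, SNP50, HMSNP and for HMSNP against MSNP. The cause of these differences was not tested.

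Over all tested genes, SNP100 gave 181 calls, 537 with the length offset, 496 with DESeq2, 0 with 6 libraries and 1225 with the added analysis. SNP50 gave 280, against 933, 680, 1 and 3068 in that order, 185 with no filter and 180 with the block. MSNP gave 4527 and 2257 with 6 libraries. HMSNP gave 1024, against 2033, 1945, 77 and 2225 in the same order. HMSNP against MSNP gave 4010, 7142 with 6 libraries and 7117 in the added analysis, MSNP against SNP100 gave 3549, 7142 and 6757, and SNP50 against SNP100 gave 0, 1 with DESeq2 and 191. Leaving out 1 library gave 57 to 1012 with SNP100, 87 to 3713 with SNP50, 3423 to 6522 with MSNP, 493 to 4940 with HMSNP, 3162 to 6644 for HMSNP against MSNP, 2629 to 6483 for MSNP against SNP100 and 0 to 85 for SNP50 against SNP100.

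Signs changed with 1 library left out for Ptges3 (-0.15 to 0.040), Alox5ap (-0.42 to 0.0064) and Ltc4s (-0.24 to 0.30) with SNP100, Ptges3 (-0.15 to 0.037) and Alox5ap (-0.34 to 0.081) with SNP50, Ptges2 (-0.16 to 0.13) and Ptges3 (-0.20 to 0.0016) with MSNP, and Alox5 (-0.026 to 0.033) and Alox5ap (-0.35 to 0.061) with HMSNP. The same held for Ptges between HMSNP and MSNP (-0.25 to 0.105) and between MSNP and SNP100 (-0.31 to 0.040), and for Ptgs2 (-0.18 to 0.062), Ptges2 (-0.035 to 0.049), Ptges3 (-0.024 to 0.021) and Alox5 (-0.047 to 0.0066) between SNP50 and SNP100. With the length offset Ltc4s was 0.0995 with SNP100, Alox5 0.0105 with HMSNP and Ptges3 0.0022 for HMSNP against MSNP. With no filter Alox5 was 0.0012 with HMSNP, and with 6 libraries Ptges3 was 1e-04 for SNP50 against SNP100. In the added analysis the values were 0.008, 0.0052 and 0.162 for Ptges3, Alox5ap and Ltc4s with SNP100, 0.0427, 0.064 and -0.0503 for Ptges2, Alox5ap and Lta4h with SNP50, 0.0909 and 0.0078 for Ptges2 and Ltc4s with MSNP, 0.0613 for Alox5ap with HMSNP and 0.0016 for Ptges3 between HMSNP and MSNP.

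The replicate numbers were tested as a block. Of 30 pairs of libraries with the same number in different groups, 10 had deviations correlated above 0.1 (median 0.02), beside 21 of 60 pairs with different numbers, so the number itself showed no pairing. Other structure shared between libraries was not tested, and SNP50 replicate 1 and Control replicate 3 had a correlation of 0.72. With the block, 0 members and 1 pathway gene were called with SNP100, and Ptgs2 was at -0.74 with an edgeR adjusted p of 0.0654. The block changed no other call of a member. Depth limits Ptges most, with 52 to 128 counts per library.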
